A study of Homo sapiens with 6 samples.

Results

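The genes described here encode the 2 plasminogen activators, the cell-surface receptor of one of them, and 3 proteins of the serpin family. The 6 genes, PLAU, PLAT, PLAUR, SERPINE2, SERPINI1 and SERPINF1, were taken by symbol from a table of 22354 loci, and all 6 were among the 14860 loci with enough reads to be tested. Plasminogen is a circulating zymogen that urokinase (uPA, from PLAU) and tissue plasminogen activator (tPA, from PLAT) cut into plasmin, a protease that dissolves fibrin and breaks down extracellular matrix. The receptor uPAR (from PLAUR) holds urokinase at the cell surface, and inhibitory serpins block the activators by trapping them in a covalent complex. Urokinase, its receptor and several serpins belong to the proteins that senescent cells secrete or shed, and 4 of the 6 genes, PLAU, PLAT, PLAUR and SERPINE2, are on the panel of secretory senescence genes that the study used.

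Total RNA from the normal thyroid line HTori-3.1 was sequenced (150-base paired ends, MGI DNBSEQ-T7) in 6 libraries to compare expression with and without BMAL1, a transcription factor of the circadian clock. The 3 libraries labelled control have the genotype wild type, and what else their cells received is not stated in the sources used here. The 3 libraries labelled BMAL1 knockout came from cells infected with a lentivirus carrying Cas9 and an sgRNA against BMAL1, selected with puromycin and picked as single clones. Both kinds of cells received 2 μM etoposide, which breaks DNA by way of topoisomerase and was used to bring on senescence, for 24 h by the methods and for 12 h by the treatment field of the labels. The libraries labelled control held 26893063, 27029060 and 28513703 counts. Those labelled BMAL1 knockout held 43148059, 29860233 and 43563391 and were thus the deeper group. Levels are given as CPM, counts scaled to a common library total after TMM normalization (which corrects for differences in library composition), with the SD over n = 3 libraries, and fold changes are knockout label over control label on the log2 scale. Nothing in the labels says that the replicates were separate cultures or clones, so the p-values measure the spread between these samples, which may be technical.

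The BMAL1 transcript was not lower under the knockout label. It was measured at 11.3, 12.2 and 14.6 CPM in replicates 1, 2 and 3 labelled control and at 17.9, 19.8 and 19.4 CPM in those labelled BMAL1 knockout. The groups did not overlap, with the knockout label higher, and BMAL1 rose by 0.58 on the log2 scale (standard error 0.11), with an adjusted p of 0.0204 in edgeR's quasi-likelihood test (Benjamini-Hochberg). The call held in 12 of 16 alternative fits. Each of 6 fits without a library kept the log2 fold change between 0.50 and 0.70, but 4 of these lost the call (adjusted p 0.0598 to 0.113 in edgeR). In addition, 421 bases of BMAL1 exons overlap the antisense lncRNA ENSG00000290083. By the methods the knockout was checked by Western blot. Counts per gene read neither the protein nor the edited bases, so the groups are named by their labels throughout, as control-labelled and knockout-labelled libraries. Among the libraries labelled BMAL1 knockout, replicate 1 stood apart. It differed from replicates 2 and 3 by 29.2 and 42.3 times the variance that counting alone gives, whereas replicates 2 and 3 differed from each other by 7.09 times. Among the controls, replicate 3 differed from replicates 1 and 2 by 13.8 and 12.5 times, against 5.22 times between those. Leaving out knockout replicate 1 raised the loci with an adjusted p under 0.05 in edgeR, here said to be called, from 161 to 293 higher and from 212 to 340 lower, so the values of the 6 genes without that library are given with their results. Leaving out control replicate 3 lowered these numbers to 60 and 81. They also fell without control replicate 1 (83 and 83), control replicate 2 (46 and 67), knockout replicate 2 (66 and 96) or knockout replicate 3 (102 and 147).

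The cells kept some thyroid markers and lacked others. PAX8, the most abundant of 12 thyroid markers, stood at 134 ± 15.4 CPM (SD, n = 3) in the control-labelled libraries and 110 ± 19.1 CPM (SD, n = 3) in the knockout-labelled ones, while NKX2-1 had no read in any library and TG, TSHR and SLC5A5 had at most 13, 6 and 8. Of these 12 markers 5 were tested and none was called by edgeR (smallest unadjusted p 0.0101, for FOXE1). KRT8 was the most abundant of 6 epithelial markers, at 1408 CPM against 1157 CPM, and KRT18 fell by 0.50 on the log2 scale (edgeR quasi-likelihood test, Benjamini-Hochberg adjusted p = 0.00583). KRT7, at 710 and 760 CPM, KRT19 and EPCAM were measured higher without being called, and the median log2 fold change of the 5 tested was 0.098. The summed CPM of those 6 were 2990, 3044 and 2897 in the control-labelled libraries and 2539, 2482 and 2563 in the others.

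Markers of other cell types were mostly at or near 0. The 8 fibroblast markers were led by COL1A1, at 860 CPM in the control-labelled libraries and 859 CPM in the knockout-labelled ones, with DCN and LUM at 0, and their summed CPM were 923, 927 and 790 against 718, 935 and 990. The 6 endothelial markers summed to 2.27, 2.28 and 2.54 CPM against 1.73, 1.47 and 2.08 CPM, with VWF the most abundant at 1.20 and 0.989 CPM and EMCN at 0. Neither list held a called gene. The 6 leukocyte markers summed to 19.3, 19.9 and 17.9 CPM against 14.2, 12.5 and 13.1 CPM, with CD68 the most abundant at 12.1 and 10.0 CPM and CD3E at 0. PTPRC, 1 of the 3 tested, fell by 1.43 on the log2 scale (edgeR adjusted p = 0.00127, Benjamini-Hochberg), while CD14 was measured at 0.413 and 0.835 CPM and was not called. Of the 4 smooth muscle markers, with summed CPM of 3.32, 2.69 and 2.57 against 5.27, 4.91 and 4.51, 2 were tested and the most abundant, ACTA2, rose from 1.82 to 3.51 CPM (edgeR adjusted p = 0.0188, Benjamini-Hochberg). The part of these markers in the results for the 6 genes was not tested, and in bulk samples fewer cells of a type and less RNA per cell cannot be told apart.

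Of the 6 genes, 2 fell in the knockout-labelled libraries and none rose. SERPINE2, an inhibitor, dropped to 57.8% of its control level, and PLAUR, the receptor, to 74.5%. Both activators were measured lower in every knockout-labelled library without passing the test, and SERPINI1 and SERPINF1 were measured higher, with overlapping groups. Across all loci tested, 2.51% had an adjusted p under 0.05 in edgeR, 1.08% higher and 1.43% lower, against 2 of these 6, both lower. Libraries with different labels stood fully apart for 4 of the 6 genes, all with the knockout label lower, while 23.3% of all loci did not overlap and 11.5% did so with the knockout label lower. These genes were chosen with earlier results known, so the counts describe them and carry no test. The median log2 fold change over all loci tested was 0.0099. Without control replicate 3 the log2 fold changes were -0.23 for PLAU, -0.28 for PLAT, -0.50 for PLAUR, -0.75 for SERPINE2, 0.4957 for SERPINI1 and 0.14 for SERPINF1, and SERPINE2 and PLAUR remained called in edgeR (adjusted p = 0.0215 and 0.0453), though leaving out other libraries cost PLAUR its call, as given below.

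**Figure D1:**
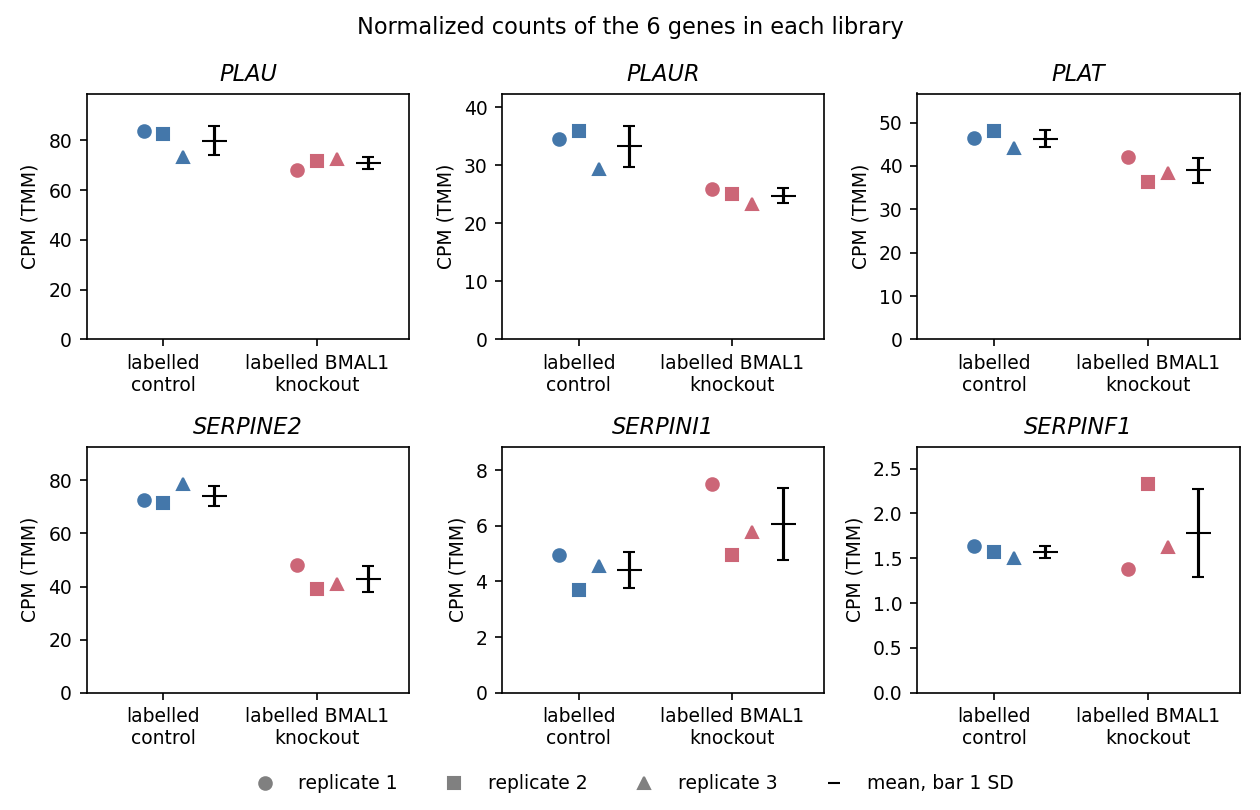
TMM-normalized CPM of the 6 genes in each library (y axes start at 0), with the mean and 1 SD of n = 3 beside the points of each group. SERPINE2 lies between 71.3 and 78.5 CPM in the control-labelled libraries and between 39.1 and 48.2 CPM in the knockout-labelled ones, whereas the points of SERPINI1 and SERPINF1 overlap between groups.

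PLAU (ENSG00000122861.16) lies on the forward strand of chromosome 10 of hg38 from 73909177 to 73917496 and encodes urokinase, the activator that works at the cell surface. Its levels were 83.8, 82.6 and 73.1 CPM in control-labelled replicates 1, 2 and 3 and 68.0, 71.8 and 72.6 CPM in the knockout-labelled ones. The highest knockout-labelled library thus came within 1 CPM of the lowest labelled control, and the groups did not overlap. The means were 79.8 ± 5.82 and 70.8 ± 2.43 CPM (SD, n = 3). The 2-sided exact permutation test over the 6 libraries gave p = 0.1, the smallest p that 3 against 3 allows. That permutation test also gave p = 0.1 for PLAT, PLAUR, SERPINE2 and BMAL1, 0.2 for SERPINI1 and 0.8 for SERPINF1. The log2 fold change of PLAU was -0.17 (95% interval -0.35 to 0.0022, adjusted p = 0.303 in edgeR's quasi-likelihood test, Benjamini-Hochberg), and it was -0.15 without knockout replicate 1. Exons of the antisense lncRNA C10orf55 cover 915 bases of PLAU exons, and the strand setting of the counting is not given in the sources used here, so reads of the pair cannot be told apart.

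PLAT (ENSG00000104368.19), on the reverse strand of chromosome 8 from 42174718 to 42207709, encodes the activator best known for dissolving fibrin clots. It was measured at 46.5, 48.1 and 44.2 CPM in the control-labelled libraries and at 42.2, 36.3 and 38.4 CPM in the knockout-labelled ones. The groups did not overlap, and knockout replicate 1 was the library nearest to the controls. The log2 fold change of -0.25 (95% interval -0.44 to -0.06) did not pass the test over all 6 libraries (edgeR adjusted p = 0.169, Benjamini-Hochberg). Without knockout replicate 1 it was -0.31 and did (edgeR adjusted p = 0.0458), against a range of 0.0458 to 0.468 over its 16 alternative fits.

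PLAUR (ENSG00000011422.12) spans 43646095 to 43670547 on the reverse strand of chromosome 19 and encodes uPAR, which is anchored in the membrane by a lipid and gathers urokinase at the leading edge of moving cells. Its levels were 34.6, 35.9 and 29.4 CPM in the control-labelled libraries. In the knockout-labelled ones they were 26.0, 25.1 and 23.4 CPM. Every knockout-labelled library was below every one labelled control, and control replicate 3 was the lowest of its group. PLAUR fell by 0.42 on the log2 scale (standard error 0.099, 95% interval -0.64 to -0.21), with an adjusted p of 0.0463 in edgeR's quasi-likelihood test (Benjamini-Hochberg). This call lay close to the threshold. It held in 9 of 16 alternative fits, with adjusted p between 0.00835 and 0.206, and it was lost on leaving out control replicate 1 (adjusted p = 0.155), control replicate 2 (0.206), knockout replicate 2 (0.136) or knockout replicate 3 (0.121) in edgeR, while the log2 fold change stayed between -0.50 and -0.36. Without knockout replicate 1 it was -0.46 (edgeR adjusted p = 0.0278).

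SERPINE2 (ENSG00000135919.14) lies on the reverse strand of chromosome 2 from 223975045 to 224039318 and encodes protease nexin-1, a secreted serpin that inhibits thrombin, urokinase and tissue plasminogen activator. Its levels were 72.7, 71.3 and 78.5 CPM in the control-labelled libraries. They were 48.2, 39.1 and 41.1 CPM in the knockout-labelled ones. The gap between the groups, from 71.3 down to 48.2 CPM, was wider than the spread within either. SERPINE2 fell by 0.79 on the log2 scale (standard error 0.093, 95% interval -0.996 to -0.589, adjusted p = 0.00165 in edgeR's quasi-likelihood test, Benjamini-Hochberg) and had the rank of 19 by p among 14860 loci. It passed in all 16 alternative fits, among them the one with every library thinned to the smallest total (log2 fold change -0.79) and the 6 that each left out a library (-0.89 to -0.73). Without knockout replicate 1 it fell by 0.89 (edgeR adjusted p = 0.000152, Benjamini-Hochberg).

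The set of RefSeq (GRCh38.p14) start windows used here, from 250 bases before to 50 after a transcription start, held 6 for 4 of the 6 genes. These 6 windows were identical to hg38, while PLAT and SERPINF1 had none in the set and were not searched. Of these windows, 1 holds the E-box CACGTG, the element that BMAL1 and CLOCK bind, and it is a SERPINE2 window. The 250 bases before that start, on the reverse strand of chromosome 2 (chr2:224031479-224031728), lie in an intron of the canonical SERPINE2 transcript and are shown because they hold the only CACGTG in these 6 windows, with CACGTG and its variant CACATG in capitals. The other SERPINE2 window, nearer the 5′ end of the gene, has neither of these and no CCAAT.
SERPINE2: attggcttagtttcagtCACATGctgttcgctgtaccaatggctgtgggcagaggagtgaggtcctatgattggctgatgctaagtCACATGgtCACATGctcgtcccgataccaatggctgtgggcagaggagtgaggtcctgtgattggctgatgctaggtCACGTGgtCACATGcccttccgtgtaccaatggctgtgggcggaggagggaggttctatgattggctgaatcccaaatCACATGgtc
The stretch repeats itself. Shifted by 77 bases it matches itself at 73.4% of 173 positions, against at most 37.6% at any other shift from 20 to 150 bases, and the repeats carry 1 CACGTG, 5 CACATG and 7 CCAAT, counted on both strands. Among all 35116 windows of 300 bases, 7.26% hold CACGTG, 11.1% hold CACATG and 34.6% hold CCAAT, but 0.0171% hold at least 5 CACATG and 0.0228% at least 7 CCAAT. The last of these motifs and CACATG were searched after the sequence had been seen. The limits of 5 and 7 are the counts of this window itself, which is among the windows counted, so these shares carry no test.

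The other motifs searched were AP-1 (TGANTCA), the TATA box (TATAAA) and the GC box (GGGCGG), on both strands. TGANTCA occurs once, in the PLAUR window, 186 bases before the start, and in 7.71% of all windows. GGGCGG occurs in both SERPINE2 windows and in 1 of 2 PLAU windows, where it occurs 3 times, and in 45.0% of all windows. TATAAA, found in 11.5% of all windows, is in none of the 6. These matches describe the letters of the windows, and no measurement of binding was made.

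SERPINI1 and SERPINF1 had few reads. SERPINI1 (ENSG00000163536.13), on the forward strand of chromosome 3 from 167735243 to 167825569, encodes neuroserpin, an inhibitor of tissue plasminogen activator best known in the nervous system. It was measured at 4.96, 3.70 and 4.57 CPM in the control-labelled libraries and 7.496, 4.946 and 5.777 CPM in the knockout-labelled ones, where replicate 2 was just under the highest control. The log2 fold change was 0.47 (95% interval 0.07 to 0.86, adjusted p = 0.216 in edgeR, Benjamini-Hochberg), 2 of 3 knockout-labelled libraries lay above all controls, and without knockout replicate 1 it was 0.28.

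SERPINF1 (ENSG00000132386.11), on the forward strand of chromosome 17 from 1762029 to 1777565, encodes PEDF, a serpin that blocks the growth of blood vessels and inhibits no protease. It had 44, 42 and 42 reads in the control-labelled libraries and 59, 71 and 72 in the knockout-labelled ones, or 1.64, 1.571 and 1.5 CPM against 1.38, 2.33 and 1.63 CPM. The knockout label held both the lowest and the highest value. The log2 fold change was 0.17 (95% interval -0.36 to 0.70, edgeR adjusted p = 0.787, Benjamini-Hochberg), it was 0.32 without knockout replicate 1, and it turned to -0.06 without knockout replicate 2. The 95% interval spans 0, so no direction of change was shown for SERPINF1.

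**Figure D2:**
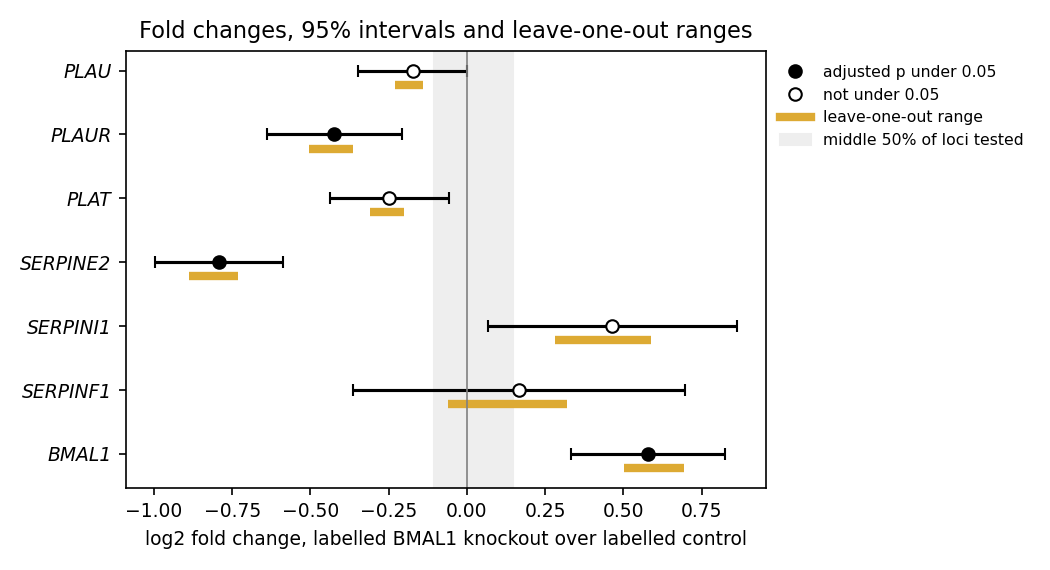
Log2 fold change of the 6 genes and BMAL1 (points) with 95% intervals (black bars) and the range over 6 fits that each left out a library (yellow bars), beside the middle 50% of all loci tested (grey band). The intervals of SERPINE2, PLAUR and PLAT lie below 0, those of SERPINI1 and BMAL1 above it, and those of PLAU and SERPINF1 span it, while the yellow bar of SERPINF1 crosses 0.

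Levels of different genes were compared per kilobase of exon. In the control-labelled libraries, PLAU had the highest level, 27.1 ± 1.97 CPM per kb (SD, n = 3) over the union of its exons. SERPINE2 (8.28 ± 0.427 CPM per kb) and PLAUR (7.47 ± 0.779 CPM per kb) followed, and their libraries overlapped between 7.96 and 8.06 CPM per kb. PLAT came next at 5.96 ± 0.247 CPM per kb, below both, and SERPINI1 (2.07 ± 0.302 CPM per kb) and SERPINF1 (0.525 ± 0.0235 CPM per kb) were the lowest, each apart from its neighbour in the order. In the knockout-labelled libraries PLAU remained the highest at 24.0 ± 0.825 CPM per kb, and PLAUR (5.57 ± 0.301), PLAT (5.01 ± 0.381) and SERPINE2 (4.78 ± 0.533) CPM per kb overlapped in their libraries over union exons. SERPINI1 stood at 2.85 ± 0.611 CPM per kb there and SERPINF1 at 0.595 ± 0.164 CPM per kb.

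The scale of this order rests on which length is used. By the canonical transcript alone, a choice made after seeing the data, SERPINE2 stood at 33.3 ± 1.72 CPM per kb in the control-labelled libraries, level with PLAU at 34.1 ± 2.48 CPM per kb, and at 19.2 ± 2.15 CPM per kb against 30.2 ± 1.04 CPM per kb in the knockout-labelled ones. There SERPINE2 overlapped with PLAUR (18.1 ± 0.980 CPM per kb), and PLAT (12.7 ± 0.967 CPM per kb) lay below both. Over union exons the ratio of PLAU to SERPINE2 level was 3.5, 3.52 and 2.83 in the control-labelled libraries and 4.28, 5.57 and 5.37 in the knockout-labelled ones. The ratio of PLAT to SERPINE2 level was 0.737, 0.777 and 0.650 against 1.01, 1.07 and 1.08. For both activators every knockout-labelled library had the higher ratio to this inhibitor, under either length, since the length scales all libraries of a ratio alike. The ratio of PLAT to SERPINI1 level ran the other way, at 2.57, 3.555 and 2.65 over union exons in the control-labelled libraries and 1.54, 2.01 and 1.82 in the knockout-labelled ones, again without overlap. Over union exons the ratio of PLAU to PLAUR level was 3.66, 3.47 and 3.77 against 3.95, 4.33 and 4.70, also without overlap. That of PLAU to PLAT overlapped, at 4.74, 4.53 and 4.355 against 4.25, 5.205 and 4.98. Of the genes in these ratios edgeR called SERPINE2 and PLAUR, both lower, and not PLAU, PLAT or SERPINI1. No p was computed for these ratios, nor the share of other gene pairs without overlap.

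**Figure D3:**
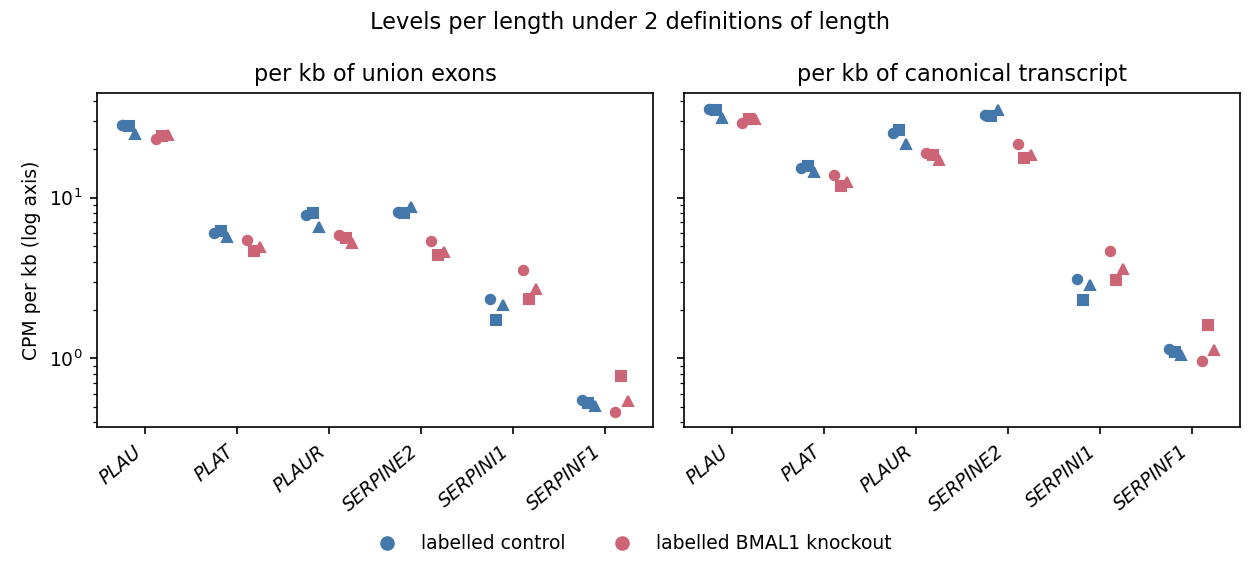
CPM per kb of the 6 genes in each library on a log axis, over union exons (left) and over the canonical transcript (right), with replicates 1, 2 and 3 as circles, squares and triangles. In the control-labelled libraries SERPINE2 sits near 8.28 CPM per kb on the left and near 33.3 on the right, level there with PLAU.

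The 20 nearest tested genes on each side were compared with each of the 6. Around SERPINE2 the median log2 fold change of these 40 neighbours was -0.049, and none of them was as low as SERPINE2. Of the 40, 26 were measured lower, among them both adjacent tested genes, MRPL44 at -0.26 and CUL3 at -0.048, and edgeR called 1 lower, IRS1, and 1 higher, SLC16A14. Around PLAUR (median 0.011) and PLAT (median 0.012) the neighbours were spread evenly, with 1 as low as PLAUR and 2 as low as PLAT. Of the neighbours of PLAT, edgeR called 1 lower, SFRP1 at -0.60. PLAU lay among genes measured higher in the knockout-labelled libraries, 34 of 40 with a median of 0.22 and 3 of them called higher by edgeR, among them AP3M1. Its own log2 fold change minus that median was -0.39, and 3 of the 40 were as low as PLAU.

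SERPINI1 lay in a region of the same kind as PLAU, and SERPINF1 in one of the opposite kind. Around SERPINI1, 35 of 40 neighbours were measured higher (median 0.22), including both adjacent tested genes, PDCD10 at 0.22 and GOLIM4 at 0.33, and 3 of the 40 were as high as SERPINI1. Around SERPINF1, 32 of 40 were measured lower (median -0.17), 2 of them called by edgeR, and 5 were as high as SERPINF1. Over 12645 loci with 20 tested neighbours on each side, 11.5% had at least 26 neighbours lower, 4.5% at least 34 higher, 3.43% at least 35 higher and 2.14% at least 32 lower. The part of the region in the values of the 6 genes was not tested.

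**Figure D4:**
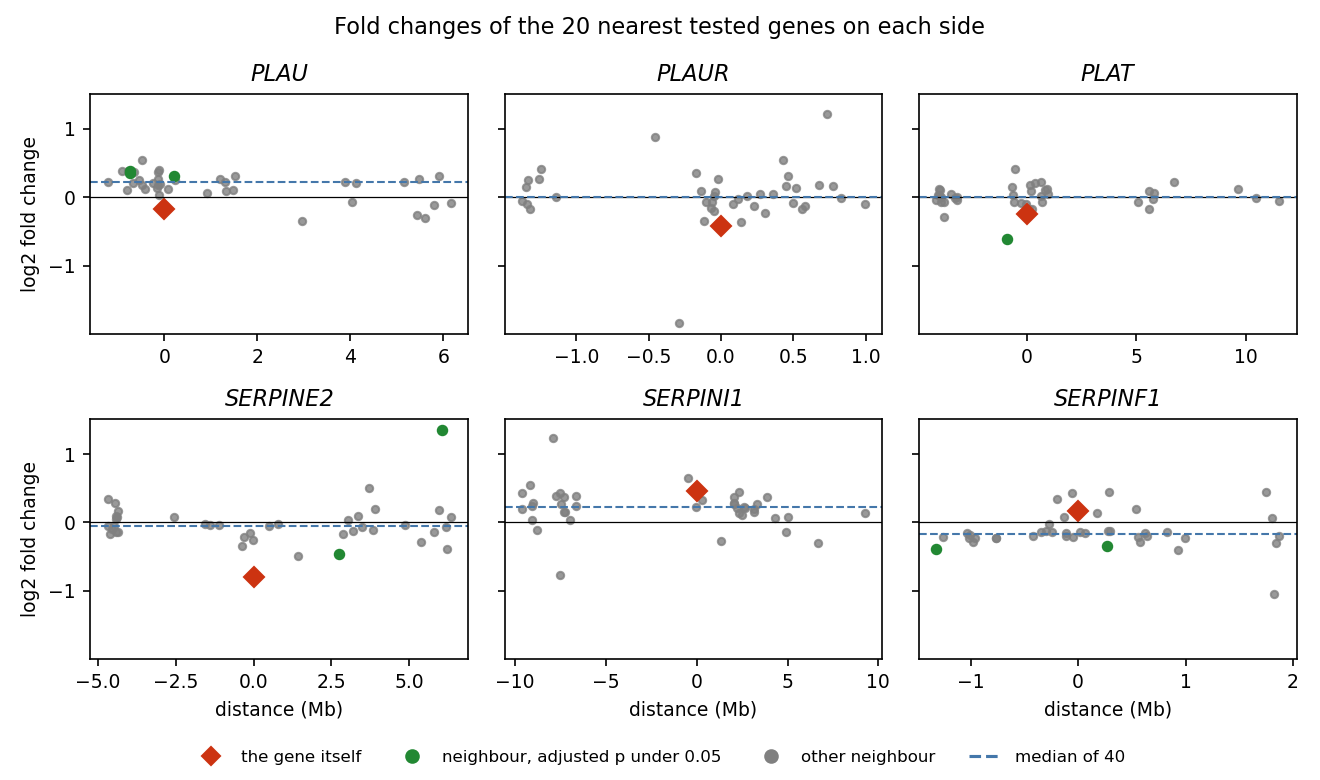
Log2 fold change (y axis) of each of the 6 genes (red diamonds) and of the 20 nearest tested genes on each side, by distance in megabases (x axis), with the median of the 40 neighbours as a dashed line and neighbours with an adjusted p under 0.05 in green. PLAU lies below a neighbourhood with a median of 0.22, and none of the neighbours of SERPINE2 is as low as it.

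Other genes of the pathway were taken from 7 lists with 78 genes, of which 58 were tested. edgeR called 10 of the 58 lower and 1 higher, their median log2 fold change was -0.13, and 36 were measured lower and 22 higher. As the lists were drawn up with earlier results of these data known, this is read as a description beside the 2.51% of all loci called.

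Among 13 other inhibitors of plasmin or its activators, 7 were tested and 2 fell, with a median log2 fold change of -0.25. SERPINB2 encodes a further inhibitor of urokinase, made by many stressed cells and kept largely inside them. It was measured at 24.7, 23.2 and 27.4 CPM in the control-labelled libraries and 6.47, 4.42 and 3.63 CPM in the knockout-labelled ones. The lowest control was thus well above the highest library of the other group, and SERPINB2 fell by 2.37 on the log2 scale (standard error 0.18, adjusted p = 4.54e-05, edgeR quasi-likelihood test with Benjamini-Hochberg adjustment), which held in all 16 alternative fits. Its exons share 547 bases with the overlapping gene ENSG00000289724, so the counts of both are uncertain. SPINT2, a membrane-bound inhibitor of serine proteases, fell from 11.2 ± 0.619 to 7.68 ± 0.892 CPM (SD, n = 3, log2 fold change -0.54, edgeR adjusted p = 0.0467), but the call held in 8 of 16 alternative fits, with adjusted p between 0.0195 and 0.179, and 242 bases of its exons are shared with ENSG00000267748 and 622 overlap the antisense lncRNA ENSG00000286037. SERPINB6, the most abundant of this list, stood at 111 ± 7.20 and 113 ± 7.08 CPM.

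Of 10 partners of uPAR at the cell surface, 8 were tested and all 8 were measured lower (median log2 fold change -0.27), as were 7098 of all 14860 loci tested. VTN (-0.28), ITGB1 (-0.051) and ITGAV (-0.035) overlapped between the groups. ITGA3, ITGA5, ITGB3, ITGB5 and EGFR did not, beside 11.5% of all loci that stood apart with the knockout label lower. Among the 8, 2 integrin subunits fell. ITGA3, which binds laminin in a pair with integrin β1 and associates with uPAR, went from 610 ± 10.8 to 438 ± 39.6 CPM (SD, n = 3, log2 fold change -0.48, edgeR adjusted p = 0.0102, Benjamini-Hochberg) and was called in 14 of 16 alternative fits, not without control replicate 2 or 3 (adjusted p = 0.0730 and 0.0568 in edgeR). ITGB3, a subunit of the vitronectin receptor, went from 118 ± 11.5 to 83.5 ± 10.8 CPM (log2 fold change -0.50, edgeR adjusted p = 0.0300) and was called in 12 of 16, with adjusted p up to 0.114. ITGB3 shares 2266 bases of exon with ENSG00000259753. FPR1 and FPR2 had no read.

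Plasminogen itself had no read, and none of the 4 plasminogen receptors tested was called by edgeR. The 3 with the smallest p were ENO1 (log2 fold change -0.19, unadjusted p = 0.0149 in edgeR), ANXA2 (0.10, 0.282) and PLGRKT (0.17, 0.420). ENO1 passed in edgeR without knockout replicate 1 (-0.20, adjusted p = 0.0325, range 0.0325 to 0.466 over its alternatives). ANXA2 and PLGRKT turned to -0.0084 and -0.16 without that library. None of 7 tested genes for clearance and uptake, 6 receptors and the chaperone LRPAP1, was called either. The smallest p were those of LRPAP1 at -0.33 (edgeR unadjusted p = 0.00361), VLDLR at 0.44 (0.00689) and IGF2R at -0.27 (0.0269), which was -0.14 without knockout replicate 1. Antisense lncRNAs overlap 1100 and 260 bases of VLDLR exons, and IGF2R shares 571 bases with CHP1P2. LRPAP1 passed in 3 of 16 alternative fits, among them DESeq2 (adjusted p = 0.0228).

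Among 18 linked proteases, coagulation factors and growth factors, 12 were tested and 2 fell (list median -0.14), while KLKB1 had no read. F2R, the thrombin receptor PAR1, went from 123 ± 9.22 to 82.0 ± 6.10 CPM (SD, n = 3, log2 fold change -0.58, edgeR adjusted p = 0.00496, Benjamini-Hochberg) and was called in all 16 alternative fits. F3, tissue factor, which starts coagulation, went from 102 ± 3.95 to 79.7 ± 2.69 CPM (log2 fold change -0.35, edgeR adjusted p = 0.0291), called in 10 of 16 with adjusted p up to 0.139. Of 9 other serpins 5 were tested (median 0.12) and 1 rose. SERPINB5, known as maspin, went from 0.637 ± 0.0411 to 1.55 ± 0.161 CPM (log2 fold change 1.28, edgeR adjusted p = 0.0233), and was called in 10 of 16. The 6 fits that left out a library all lost the call (adjusted p 0.0507 to 0.0915 in edgeR), with log2 fold changes of 1.19 to 1.34.

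Factors that bind the promoters of PLAU and PLAUR were listed as 15 genes, 7 for AP-1 subunits, 4 for Ets factors and SP1, SP3, RELA and NFKB1, and all 15 were tested (median log2 fold change of the list 0.02). Of these, 4 fell and none rose. FOSL1, an AP-1 subunit of the Fos family, went from 163 ± 10.9 to 114 ± 4.05 CPM (SD, n = 3, log2 fold change -0.52, edgeR adjusted p = 0.00505, Benjamini-Hochberg), called in all 16 alternative fits. JUN, JUNB, JUND, FOS, FOSB and FOSL2 were not called, with log2 fold changes from 0.05 to 0.29. ETV4 (-0.64, edgeR adjusted p = 0.0102), ETV5 (-0.33, 0.0387) and ETS2 (-0.33, 0.0492), 3 Ets factors, made up the rest, called in 15, 9 and 8 of 16 alternative fits, with adjusted p up to 0.0639, 0.170 and 0.175. ETV5 shares 164 bases of exon with DGKG, and DHX8 overlaps 68 bases of ETV4 on the other strand.

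**Figure D5:**
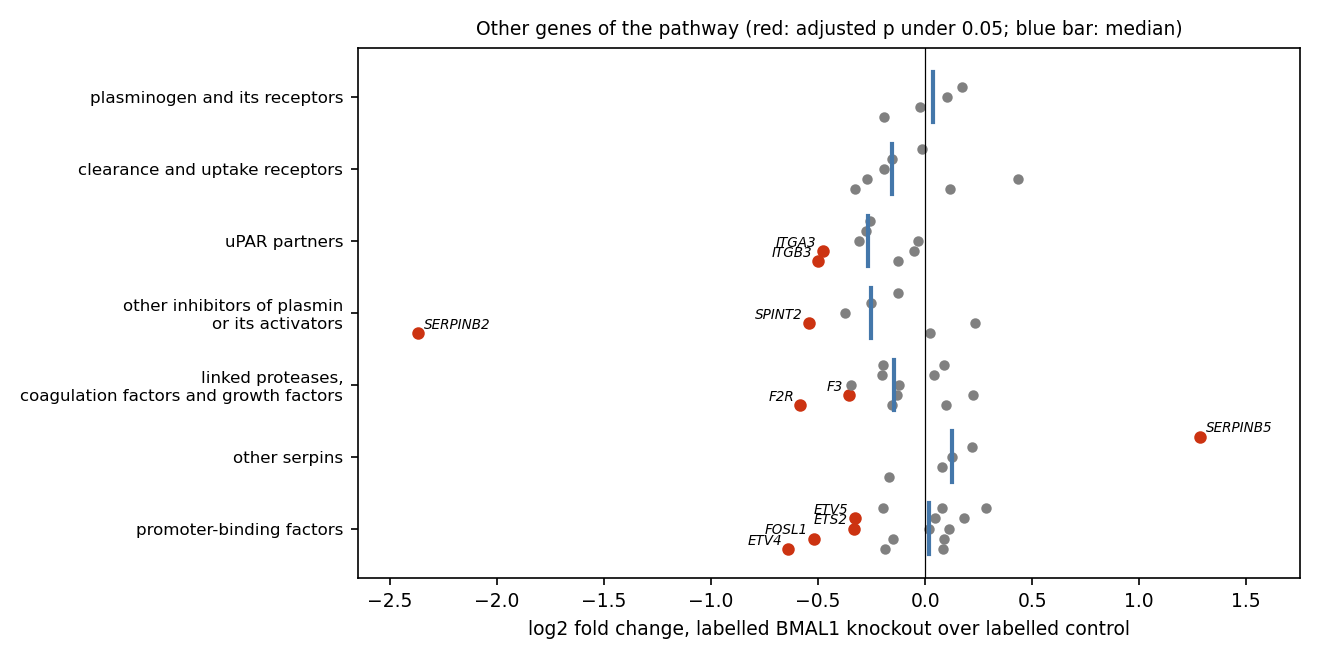
Log2 fold change (x axis) of the 58 tested genes in the 7 lists of other pathway genes (rows), with the median of each list as a blue bar and genes with an adjusted p under 0.05 in red and named. SERPINB2 is the lowest at -2.37 and SERPINB5 the highest at 1.28. All 8 tested partners of uPAR lie below 0, with ITGAV at -0.035 and ITGB1 at -0.051 the nearest to it.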

How the data were processed

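Counts per gene, in whole numbers and without normalization, are those deposited by the authors, from reads that mapped to 1 place in hg38. Their notes name fastp 0.20.1 and HISAT2 2.0.4. The gene annotation is not given in the sources used here. The 6 columns were matched to the samples by name. Names were matched to GENCODE v44, which holds 20018 of the 22354 loci and 13578 of the 14860 kept. All values come from edgeR 4.0.16 (R 4.3.3): its standard filter for low counts, TMM factors, and a robust quasi-likelihood fit with a 2-sided test. The p-values were adjusted over the loci kept (Benjamini-Hochberg), and those under 0.05 were called. Standard errors are the fold change over the root of its F statistic. The fits were tested on simulated counts.

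Alternatives tried were DESeq2 1.42.0, limma-voom (limma 3.58.1), RLE size factors, scaling by library size only, no filter beyond 1 count, a stricter filter (10 counts in each library), thinning to the smallest total, a block for replicate number, removal of the trend with GC content of exons in each library (loess, span 0.5, known for 91.4% of the loci kept), the block and this removal together, and leaving out each library. The genes named are the 6, BMAL1, called genes of each pathway list (at most 8, or else the 3 with the smallest p), the most abundant and absent markers, and for each of the 6 the 3 genes (mean of at least 10 CPM) whose centred log2 CPM had the smallest root-mean-square difference from its own. Other pathway genes, markers and neighbours that are named were chosen after their values were seen. The members and lists were chosen with earlier results of these data known. Protein sequences were not used here.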

Additional observations from a re-analysis of the deposited data

How the results depend on the processing

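The log2 fold changes of the 6 genes, BMAL1 and the pathway genes picked by the rule above were recomputed under 16 alternatives. Those of markers, neighbours and genes of like profile, and the medians of lists and neighbours, were not. PLAU, SERPINE2 and SERPINI1 kept their direction and side of the threshold in all 16. PLAUR missed it with library size only (-0.40, edgeR adjusted p = 0.0617), limma-voom (-0.42, adjusted p = 0.0559) and the replicate block (-0.42, edgeR adjusted p = 0.0625). Over the 6 fits that each left out a library, log2 fold changes ran from -0.50 to -0.36 for PLAUR, from -0.31 to -0.20 for PLAT, from -0.0615 to 0.32 for SERPINF1, from 0.50 to 0.70 for BMAL1 (called in 2 of 6), from -0.0084 to 0.16 for ANXA2 and from -0.16 to 0.35 for PLGRKT. Loci called higher numbered 256 with DESeq2, 478 with the GC trend removed, 348 with the replicate block and GC removal together, and 46 to 293 with a library left out, against 161. Loci called lower numbered 379, 579, 473 and 67 to 340, against 212. Higher and lower, the replicate block alone gave 132 and 145, limma-voom 118 and 194, and library size only 185 and 155, which turned the balance. Same-numbered libraries deviated with correlations of -0.090, -0.052 and -0.0047, against -0.047 to 0.10 for the others. No pairing by number was thus seen, though so few values cannot exclude a weak one. By canonical transcript length, chosen after seeing the data, levels in the libraries labelled control were 34.1, 24.3, 15.1, 33.3, 2.76 and 1.09 CPM per kb for PLAU, PLAUR, PLAT, SERPINE2, SERPINI1 and SERPINF1, the ratio of PLAU to SERPINE2 was 1.03 (1.59 with the knockout label) and that of PLAT to SERPINE2 0.455 (0.663). These follow from the shorter length, and elsewhere the cause was not tested. Other scalings moved the median of all loci by at most 0.0285 on the log2 scale.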

Other observations

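The genes whose levels over the 6 libraries ran most like those of each gene were found among 9593 genes averaging 10 CPM or more (9594 for SERPINI1 and SERPINF1), by the root-mean-square difference of mean-centred log2 CPM. For SERPINE2 they were NR1D2 (difference 0.0752), a nuclear receptor of the circadian clock's accessory loop, EMP1 (0.0798) and IL7R (0.0889), a cytokine receptor chain. Their log2 fold changes of -0.78, -0.79 and -0.72 follow from the choice by likeness and carry no test, and SERPINE2 itself lay 0.411 from its own mean by the same measure. For PLAUR they were NFE2L3 (0.0303), ZNF703 (0.0506) and HSPA5 (0.0603), the main chaperone of the endoplasmic reticulum, with log2 fold changes of -0.46, -0.42 and -0.47.

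For PLAU they were PABPC4 (0.0126), RUVBL2 (0.0146) and RANBP3 (0.0152), and for PLAT EMP3 (0.0230), TMEM50B (0.0243) and CFAP298 (0.0338). SERPINI1 ran closest to IL1RAP (0.117), ZNF22 (0.122) and IFTAP (0.122), and SERPINF1 to ADORA1 (0.0977), JDP2 (0.101) and SLC25A6 (0.110). With 6 libraries these likenesses are descriptions and carry no p.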
